A study of Mus musculus with 12 samples.

Results

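Krt7, Krt8, Krt18 and Krt19 are the keratins of simple, single-layered epithelia. Their RNA was read in mouse embryonic stem cells that carry or lack the Wnt-pathway repressor named Tcf3 in the labels, now Tcf7l1. All probe sets annotated to one of these 4 symbols alone were taken, which gave 6 probe sets for 4 genes among 34945 probe sets with a single symbol for 18193 genes. Krt8 had 3 probe sets and the other keratins 1 each. The 4 genes were chosen for their levels in these groups, so their differences are given as a description, with no test.

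The 4 groups held 3 Affymetrix arrays each, 12 in all. They were Tcf3-/- cells (KO) with 50 ng/ml recombinant Wnt3a for 24 h, Tcf3+/+ cells (WT) with the same Wnt3a, KO cells in control medium and WT cells in control medium. All cells grew on gelatin, with no feeder layer, in medium with serum and Lif, a cytokine that holds mouse embryonic stem cells in self-renewal. The labels do not say which exons the knockout lacks, how many clones were used or whether replicates were separate cultures. The p-values therefore reflect only how far these arrays spread, and that spread may be technical.

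Keratins build intermediate filaments from pairs of a type I chain and a type II chain. Krt7 and Krt8 are type II and Krt18 and Krt19 are type I, with Krt8 and Krt18 the usual pair of simple epithelium. In the mouse embryo Krt8 and Krt18 are among the earliest filament proteins and mark the trophectoderm, the outer epithelium of the blastocyst. Tcf7l1 binds DNA through an HMG box and mostly represses its targets, and beta-catenin that builds up under Wnt signals relieves that repression.

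On the log2 scale of the deposited intensities, all 4 keratins were lower in KO cells than in WT cells in both media. Median differences over the 4 genes were -3.80 with Wnt3a and -4.43 in control medium, where the median over the 13811 genes tested was 0.01 in either medium. Wnt3a went with lower keratin levels in WT cells, by a median of -0.62 on the log2 scale. In KO cells the median difference with Wnt3a was -0.03. Since these are bulk cultures, fewer keratin-bearing cells and less keratin RNA per cell cannot be told apart.

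Among the type II chains, Krt8 read 8.74, 8.89 and 8.81 (log2 intensity, probe set 1420647_a_at) on the 3 KO arrays with Wnt3a, against 13.20, 13.05 and 12.84 on the WT arrays with Wnt3a. Control medium gave 8.93, 9.65 and 9.09 on KO arrays, against 14.00, 13.32 and 13.66 on WT arrays. Every KO array lay far below every WT array, while KO arrays stayed well above the floor of 5.56. That floor, an intensity of 47.2, is the 40th percentile of all values and stood in for a detection call. The group means of Krt8 were 8.81 ± 0.08 in KO cells with Wnt3a, 13.03 ± 0.18 in WT cells with Wnt3a, 9.22 ± 0.38 in KO cells in control medium and 13.66 ± 0.34 in WT cells in control medium (SD, n = 3 each).

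The 2 further Krt8 probe sets end in _x_at, the maker's mark for probes that may also match other sequences. On 1423691_x_at the KO arrays read 8.31, 8.56 and 8.42 with Wnt3a, against 12.73, 12.53 and 12.35 on WT arrays with Wnt3a. Control medium gave 8.24, 9.04 and 8.56 on KO arrays, against 13.68, 12.83 and 13.30 on WT arrays. On both probe sets no KO array reached any WT array of either medium. The last one, 1435989_x_at, read 8.65, 8.74 and 8.62 on KO arrays, against 12.57, 12.36 and 12.18 on WT arrays with Wnt3a. In control medium it read 8.32, 9.17 and 8.55 on KO arrays, against 13.50, 12.82 and 13.12 on WT arrays. Over the 3 Krt8 probe sets, KO minus WT ran from -4.22 to -3.70 with Wnt3a and from -4.66 to -4.44 in control medium, so the choice of probe set moved the knockout difference little.

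Krt7 is a type II keratin of glandular and ductal epithelia. Its probe set read 5.79, 6.19 and 5.99 on KO arrays with Wnt3a, against 8.88, 8.60 and 8.79 on WT arrays with Wnt3a. Without Wnt3a it read 6.09, 6.13 and 5.97 on KO arrays, against 9.85, 8.88 and 9.35 on WT arrays. The KO values of Krt7 sat just above the floor, and the groups of the 2 genotypes did not overlap. Group means were 5.99 ± 0.20 in KO and 8.76 ± 0.14 in WT cells with Wnt3a, and 6.06 ± 0.08 in KO and 9.36 ± 0.49 in WT cells in control medium (SD, n = 3 each).

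Krt18, the type I partner of Krt8, read 8.68, 8.79 and 8.60 on KO arrays with Wnt3a, against 13.13, 13.03 and 12.88 on WT arrays with Wnt3a. Control medium gave 8.29, 9.13 and 8.62 on KO arrays, against 13.93, 13.15 and 13.58 on WT arrays. Its arrays fell in the same order as those of Krt8 within 3 of the 4 groups, and KO and WT arrays did not overlap. Group means were 8.69 ± 0.10 in KO and 13.01 ± 0.13 in WT cells with Wnt3a, and 8.68 ± 0.42 in KO and 13.55 ± 0.39 in WT cells in control medium (SD, n = 3 each).

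Krt19, the type I keratin without a tail domain, read 6.64, 6.74 and 7.03 on KO arrays with Wnt3a, against 10.77, 10.24 and 9.52 on WT arrays with Wnt3a. The control-medium values were 6.65, 6.65 and 6.68 on KO arrays, against 11.50, 10.69 and 11.04 on WT arrays. Its WT arrays were the most widely spread of the 4 keratins with Wnt3a, yet no WT array came near the KO arrays. Group means were 6.80 ± 0.20 in KO and 10.18 ± 0.63 in WT cells with Wnt3a, and 6.66 ± 0.02 in KO and 11.07 ± 0.41 in WT cells in control medium (SD, n = 3 each).

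**Figure D1:**
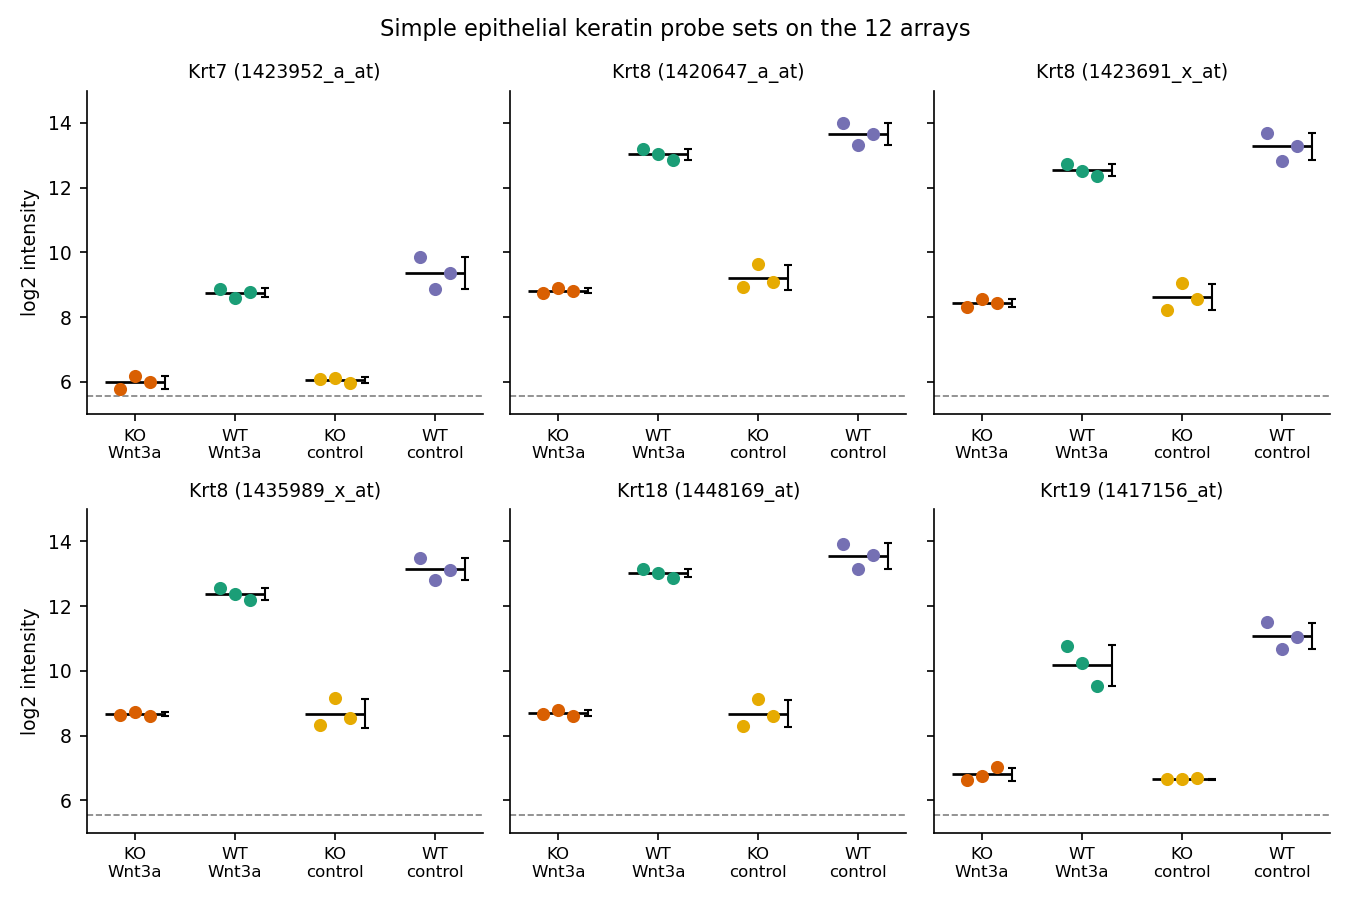
Log2 intensity of the 6 keratin probe sets on all 12 arrays, by group on the horizontal axis. Points are arrays, horizontal bars are group means, vertical bars are the SD (n = 3) and the dashed line is the floor of 5.56. In each panel both KO groups lie below both WT groups, and all points lie above the floor.

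The difference between KO and WT was largest for Krt18. Krt18 was 20.1-fold lower in KO cells with Wnt3a (log2 difference -4.33 ± 0.21, SE) and 29.3-fold lower in control medium (-4.87 ± 0.21). Krt8 was 18.6-fold lower with Wnt3a (-4.22 ± 0.19) and 21.6-fold lower in control medium (-4.44 ± 0.19). Ordered from the most negative difference, with genes under the floor at their measured values, these placed Krt18 at rank 5 and Krt8 at rank 6 of 13811 genes with Wnt3a, and at ranks 4 and 7 in control medium.

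Krt19 was 10.4-fold lower in KO cells with Wnt3a (log2 difference -3.37 ± 0.26, SE) and 21.4-fold lower in control medium (-4.42 ± 0.26), at ranks 15 and 8. Krt7 was 6.79-fold lower with Wnt3a (-2.76 ± 0.19) and 9.82-fold lower in control medium (-3.30 ± 0.19), at ranks 25 and 24. Krt7 had the smallest difference of the 4 in each medium and the KO values closest to the floor. All 6 probe sets were lower in KO cells with no overlap of arrays in either medium. Of all genes tested, 22.3% were lower with no overlap with Wnt3a and 28.1% in control medium; the keratins were picked for this pattern, so nothing is read from their count.

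The 24 h of Wnt3a went with lower levels of all 4 keratins in WT cells. The log2 difference, Wnt3a minus control, was -0.60 ± 0.19 for Krt7, -0.63 ± 0.19 for Krt8, -0.54 ± 0.21 for Krt18 and -0.90 ± 0.26 for Krt19 (SE). Without WT control replicate 1 the difference was -0.36 for Krt7 and -0.35 for Krt18, and without WT Wnt3a replicate 3 it was -0.57 for Krt19. In the order first given the 4 genes were 1.52-fold, 1.54-fold, 1.45-fold and 1.86-fold lower with Wnt3a. Ordered from the most negative difference they ranked between 246 and 999 of 13811 genes. Wnt3a and control arrays of WT cells did not overlap for 3 of the 4 genes, with Krt19 the exception, and 28.3% of all genes tested were lower without overlap in that comparison.

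In KO cells the keratins moved little with Wnt3a, and not one way. The log2 difference was -0.07 ± 0.19 for Krt7, -0.41 ± 0.19 for Krt8, 0.01 ± 0.21 for Krt18 and 0.14 ± 0.26 for Krt19 (SE). Without KO control replicate 2, Krt8 differed by -0.19. The differences of the other 3 keratins were smaller than their standard errors. Of the 6 probe sets, 4 were lower with Wnt3a, and only the Krt8 probe set 1420647_a_at did so without overlap, where 22.5% of all genes did. Over the 3 Krt8 probe sets the difference ran from -0.41 to -0.01.

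The Wnt3a difference in KO cells minus that in WT cells was above 0 for all 4 keratins. It was 0.53 ± 0.27 for Krt7, 0.22 ± 0.27 for Krt8, 0.55 ± 0.29 for Krt18 and 1.04 ± 0.37 for Krt19 (log2, SE). With 1 array left out, it ran from 0.29 to 0.77 for Krt7, lowest without WT control replicate 1, and from 0.05 to 0.43 for Krt8, lowest without WT control replicate 1 and highest without KO control replicate 2. For Krt18 it was 0.35 without KO control replicate 1 and 0.36 without WT control replicate 1, and with the mean of all probe sets Krt8 gave 0.51. The median over the 4 was 0.54, against 0.01 over all genes tested, of which limma called 4.08% for this difference. The standard errors of these keratins, 0.19 to 0.26 for a difference of 2 groups, were larger than the median of 0.09 over all genes tested.

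**Figure D2:**
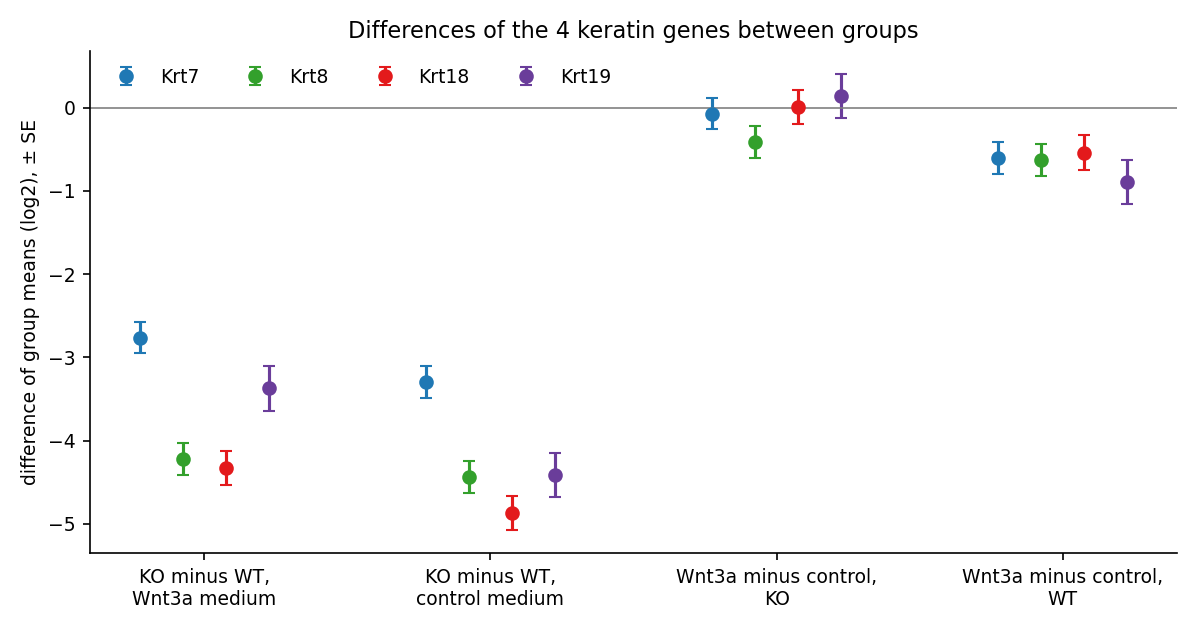
Differences of group means (log2) for Krt7, Krt8, Krt18 and Krt19 in 4 comparisons, with bars for the SE of the limma fit. KO minus WT lies between -4.87 and -2.76 in the 2 media, while Wnt3a minus control lies between -0.90 and -0.54 in WT cells and between -0.41 and 0.14 in KO cells.

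Within a group, the same arrays were high or low for most of the keratin probe sets. WT replicate 1 was the highest of its group on 6 of 6 probe sets both with Wnt3a and in control medium. WT replicate 2 was the lowest on 6 of 6 in control medium, and WT replicate 3 was the lowest on 5 of 6 with Wnt3a. KO replicate 2 was the highest on 5 of 6 probe sets with Wnt3a and on 5 of 6 in control medium.

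After each group's mean was taken away, Krt8 and Krt18 moved together over the 12 arrays with a Pearson r of 0.97. Krt7 followed less closely, with r of 0.68 with Krt8 and 0.66 with Krt18. Krt19 had r of 0.59 with Krt8, 0.53 with Krt7 and 0.49 with Krt18. These are descriptions over 12 arrays that were normalized together.

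Krt7, Krt8 and Krt18 share one stretch of mouse chromosome 15, which holds the type II keratins and, at one edge, the type I gene Krt18. RefSeq promoter windows, 250 bases before to 50 bases after the annotated start in GRCm38.p6, matched Krt7, Krt8 and Krt18. They are shown because these genes moved together, with capitals for the motif words found in them on either strand.
Krt7 (chr15:101412153-101412452, plus strand): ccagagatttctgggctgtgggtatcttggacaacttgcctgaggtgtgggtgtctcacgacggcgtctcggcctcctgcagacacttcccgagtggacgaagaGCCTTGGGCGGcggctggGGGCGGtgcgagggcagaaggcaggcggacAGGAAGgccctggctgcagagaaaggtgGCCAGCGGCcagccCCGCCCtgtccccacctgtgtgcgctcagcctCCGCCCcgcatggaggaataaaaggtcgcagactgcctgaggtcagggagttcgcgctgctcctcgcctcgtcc
Krt8 (chr15:102004293-102004592, minus strand): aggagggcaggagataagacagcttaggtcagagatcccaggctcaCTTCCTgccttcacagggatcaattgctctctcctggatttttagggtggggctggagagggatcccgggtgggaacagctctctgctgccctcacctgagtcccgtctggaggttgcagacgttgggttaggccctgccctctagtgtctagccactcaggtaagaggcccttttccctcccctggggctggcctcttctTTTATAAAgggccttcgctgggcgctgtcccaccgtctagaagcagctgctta
Krt18 (chr15:102027966-102028265, plus strand): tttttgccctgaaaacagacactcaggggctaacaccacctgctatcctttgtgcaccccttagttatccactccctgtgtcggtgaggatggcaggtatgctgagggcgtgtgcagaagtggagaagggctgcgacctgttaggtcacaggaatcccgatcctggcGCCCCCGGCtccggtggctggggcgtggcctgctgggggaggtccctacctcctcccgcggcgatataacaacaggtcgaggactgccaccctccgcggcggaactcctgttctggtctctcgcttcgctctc

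The windows were searched on both strands for 8 motifs: TATAAA for the TATA box, then AACAAAG or ATCAAAG or TACAAAG or TTCAAAG (Tcf/Lef), TGANTCA (AP-1), AGGAAG (Ets), GGGCGG (Sp/Klf), CATTCC (Tead), GCCNNNGGC (Tfap2) and the CArG box. None of the 3 windows holds the Tcf/Lef, AP-1, Tead or CArG word. Over 32817 promoter windows of the same length, 16.88% hold the Tcf/Lef word, 7.813% the AP-1 word, 14.66% the Tead word and 1.63% the CArG box. An absent word says only that those letters are not in these 300 bases.

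The 3 windows were unlike each other in what they hold. Krt7, with 66.3% G and C, has 4 Sp/Klf words, 1 Ets word and 2 Tfap2 words, the first of which overlaps an Sp/Klf word. Krt8 has 1 Ets word and a TATA word that spans the annotated start and reads on both strands. Krt18 has 1 Tfap2 word. Among all windows the Sp/Klf word is held by 35.63%, the Ets word by 35.35%, the Tfap2 word by 16.58% and the TATA word by 13.62%.

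RefSeq places 23 protein-coding genes between Krt7 and Krt8, of which 12 were tested. In WT cells in control medium the means of these 12 genes ran from 5.66 (Krt73) to 8.07 (Krt81), against a floor of 5.56. Those near the floor have little room to fall, so few lower calls here cannot show whether well-expressed neighbours were unchanged. In control medium 0 of these 12 were called, at an adjusted p under 0.05 by limma over all genes, and 1 had an unadjusted p under 0.05. Their KO minus WT differences ran from -0.18 to 0.11 on the log2 scale. Of all genes tested, 42.2% were called in that comparison. With Wnt3a 1 of the 12 was called, higher, with differences from -0.27 to 0.29, against 28% of all genes. Wnt3a minus control gave 0 calls of 12 in WT cells (1 at an unadjusted p under 0.05), where 41.5% of all genes were called, and 1 of 12 in KO cells, where 28% were.

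Just outside that stretch, 8 flanking genes were tested. With Wnt3a 2 of them were called, both lower, against 28% of all genes. In control medium 3 of them were called, against 42.2% of all genes. Atg101, an autophagy initiation factor, was higher in KO cells (log2 difference 0.32 ± 0.06, limma adjusted p = 0.0016). Spryd3 (-0.38 ± 0.08, limma adjusted p = 0.0033) and Igfbp6, which binds insulin-like growth factors (-0.88 ± 0.17, adjusted p = 0.0011), were lower. Eif4b, the translation factor gene next to Krt18, differed by 0.04 ± 0.06 (adjusted p = 0.65). These 4 genes were picked by position after their values were seen. The smallest KO difference of Krt7, Krt8 and Krt18, -2.76 for Krt7 with Wnt3a, was larger than that of any tested gene between or beside them.

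**Figure D3:**
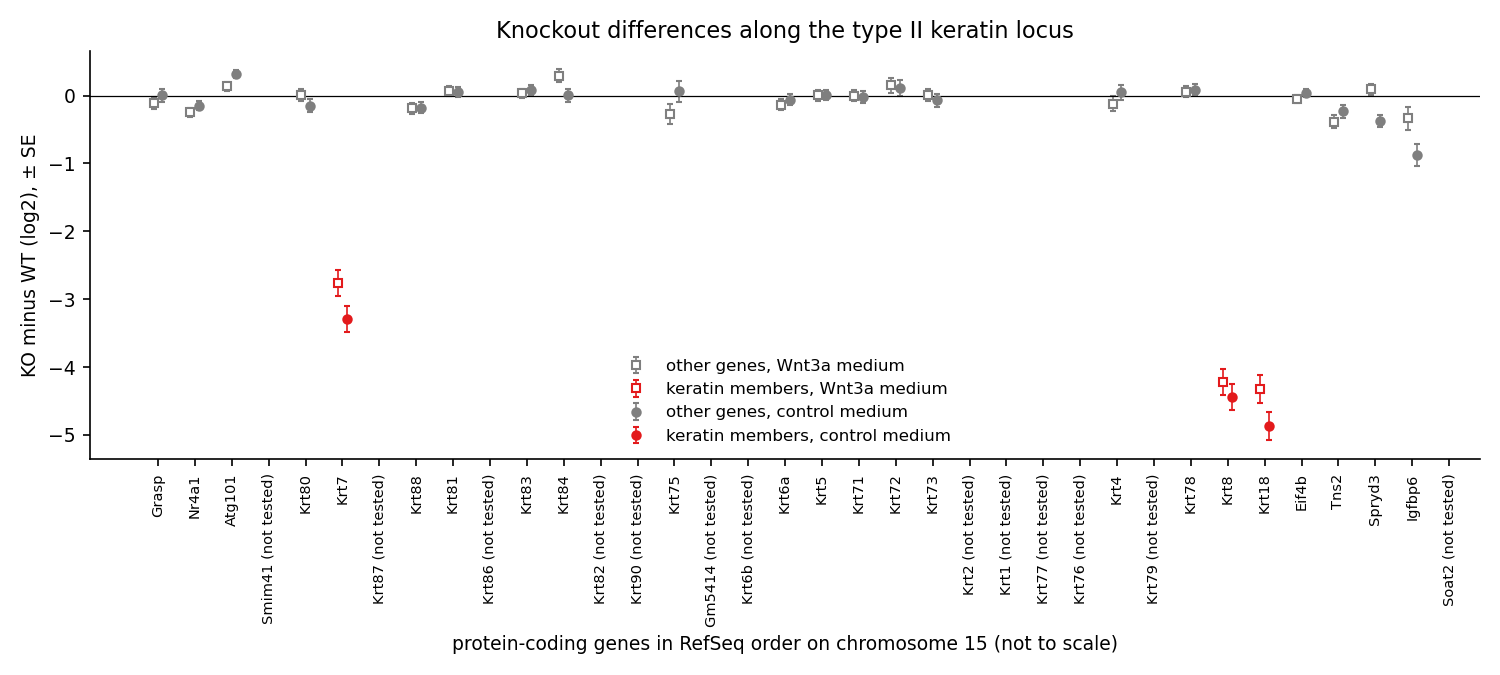
KO minus WT difference (log2, bars are the SE of the limma fit) of protein-coding genes in RefSeq order along the type II keratin stretch of chromosome 15, not to scale. Open squares are Wnt3a medium, filled circles are control medium, and Krt7, Krt8 and Krt18 are in red. The other tested genes lie between -0.88 and 0.32, while the red genes lie between -4.87 and -2.76.

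Krt19 sits on chromosome 11 among other type I keratins. Of its 10 nearest protein-coding genes 5 were tested. Limma called 2 in control medium and 0 with Wnt3a, also 0 there at an unadjusted p under 0.05. Among all genes, 42.2% were called in control medium and 28% with Wnt3a. Krt14, the type I keratin of basal epidermis, was lower in KO cells in control medium (log2 difference -0.33 ± 0.08, limma adjusted p = 0.0058, and -0.21 on the scale of log2(value + 32)). It was near the floor throughout, at 5.63 ± 0.05 in KO and 5.97 ± 0.09 in WT cells. Krt42 was higher, at 9.96 ± 0.11 in KO and 9.44 ± 0.16 in WT cells (0.53 ± 0.12, adjusted p = 0.0029).

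In the wider keratin family, differences between KO and WT cells were smaller. They ran from -0.44 to 0.20 over the other type I keratins with Wnt3a and from -1.14 to 0.53 in control medium. Apart from the 4 simple epithelial keratins the array carried 44 keratin genes, of which 20 were above the floor on no array and 23 were tested. Krt42 and Krt81 were the 2 with any array above 8 on the log2 scale. Of 10 other type I keratins tested, 2 were lower and 1 higher in KO cells in control medium, and limma called 0 with Wnt3a, where 2 had an unadjusted p under 0.05. These are 30% and 0% of the list, against 42.2% and 28% of all genes. Of 12 other type II keratins tested, 0 were called in control medium, with 0 also at an unadjusted p under 0.05, and 1, higher, with Wnt3a. Most of these are the same genes as those tested between Krt7 and Krt8, and Krt84 is the call with Wnt3a in both counts. The tested neighbours of Krt19 are likewise among the 10 type I keratins, so these are not separate results.

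Krt20, a type I keratin of gut epithelium, had the lowest difference of those keratins in control medium. It averaged 5.12 ± 0.26 in KO cells, under the floor, and 6.26 ± 0.21 in WT cells in control medium (SD, n = 3 each). With Wnt3a it averaged 4.99 ± 0.31 in KO and 5.43 ± 0.24 in WT cells. Krt20 was above the floor on 4 of 12 arrays and was tested because of the WT control arrays, so no p is given for it, although it is among the 2 lower calls in control medium. In WT cells, the other type I keratins gave 3 lower and 2 higher calls of 10 with Wnt3a, and the other type II keratins 0 of 12 (1 at an unadjusted p under 0.05), where 41.5% of all genes were called.

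Keratin filaments are anchored at desmosomes, junctions in which desmosomal cadherins bind plakoglobin and plakophilins and desmoplakin ties these to the filaments. Of 18 tested genes for desmosomes and keratin linkers, 11 were lower and 1 higher in KO cells with Wnt3a, and 12 were lower and 2 higher in control medium. Among all genes 14.7% were lower and 13.2% higher with Wnt3a, and 22.3% were lower and 19.9% higher in control medium. Median differences of the list were -0.35 with Wnt3a and -0.60 in control medium, against 0.01 over all genes in both.

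Dsp, which encodes desmoplakin, had the largest fall of the list. It averaged 7.92 ± 0.57 in KO and 10.58 ± 0.31 in WT cells with Wnt3a, a 6.31-fold fall (log2 difference -2.66 ± 0.27, limma adjusted p = 4.1e-05). Without Wnt3a it averaged 8.52 ± 0.07 in KO and 11.24 ± 0.46 in WT cells, a 6.61-fold fall (-2.72 ± 0.27, adjusted p = 1.0e-05). All 3 Dsp probe sets were called lower in both media, as the keratins were lower in both.

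Dsc2, a desmosomal cadherin, fell under the floor in KO cells. It was at least 2.5-fold lower with Wnt3a and at least 4.8-fold lower in control medium. All its KO arrays were under the floor, so it was tested because of the WT arrays. No p is therefore given for Dsc2, although it is among the lower calls in both media. Perp, a membrane protein of desmosomes, fell in both media (log2 difference -1.61 with Wnt3a and -2.19 in control medium). Pkp2, a plakophilin (-1.02 and -1.37), and Dsg2, a desmosomal cadherin (-0.70 and -1.10), also fell in both. Dsg2 was called lower on 4 of 6 probe sets with Wnt3a and on 5 of 6 in control medium. Averaged over all probe sets, Pkp2 differed by -0.49 with Wnt3a and by -0.79 in control medium, and Dsg2 by -0.66 in control medium.

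The plakins bind keratin directly. Plec, for plectin, fell in both media (log2 difference -0.75 with Wnt3a and -0.96 in control medium, there -0.45 when averaged over all probe sets). In control medium Eppk1, for epiplakin, was 1.99-fold lower and Ppl, for periplakin, 1.87-fold lower, while Evpl, for envoplakin, differed by -0.13 and was not called (limma adjusted p = 0.47). In WT cells with Wnt3a, 8 of the 18 genes were lower and 2 higher, with a median of -0.34, where 22.6% of all genes were lower and 18.9% higher. Pkp2 fell by 0.61 there (adjusted p = 0.00069) and Eppk1 fell by 0.76 (adjusted p = 0.0080). In KO cells 1 of the 18 was lower with Wnt3a and 2 were higher, where 14.7% of all genes were lower and 13.3% higher. The lower one was Jup, for plakoglobin, which fell by 0.69 (adjusted p = 0.00037).

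**Figure D4:**
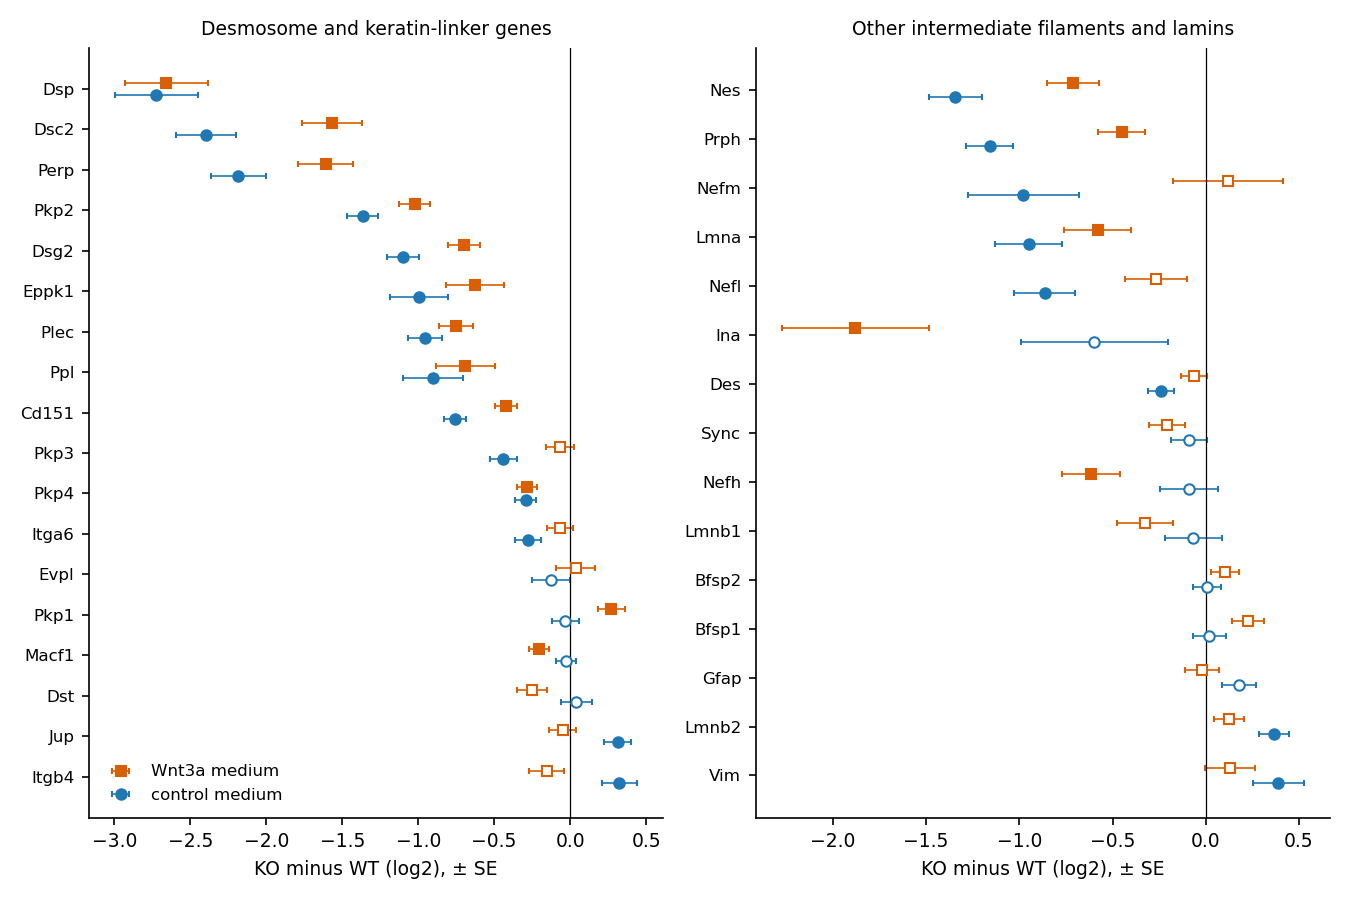
KO minus WT difference (log2, bars are the SE of the limma fit) of desmosome and keratin-linker genes on the left and of other intermediate filament and lamin genes on the right. Squares are Wnt3a medium, circles are control medium, and filled symbols have an adjusted p under 0.05. Dsp, at -2.66 and -2.72, lies lowest on the left, and most filled symbols of the left panel lie below 0.

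Other intermediate filaments were mixed. Of 15 tested genes for filament proteins other than keratins, lamins included, 5 were lower and 0 higher in KO cells with Wnt3a, and 6 were lower and 2 higher in control medium. These are 33.3% and 53.3% of the list, against 28% and 42.2% of all genes. Nes, for nestin, fell in both media (log2 difference -0.71 with Wnt3a and -1.34 in control medium), although 1 of its 2 tested probe sets carried the call in control medium, where the average over its probe sets was -0.58. Lmna, for lamin A/C, fell by 0.95 in control medium, on 3 of 4 tested probe sets (-0.60 averaged over all). Ina, for internexin, fell by 1.88 with Wnt3a, with KO arrays at 9.70, 9.06 and 7.60, against 10.98, 10.64 and 10.36 on WT arrays.

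Vim, for vimentin, the filament protein of mesenchymal cells, was not lower in KO cells. It averaged 12.17 ± 0.04 in KO and 11.78 ± 0.19 in WT cells in control medium (SD, n = 3 each), a log2 difference of 0.39 ± 0.14 with a limma adjusted p of 0.036. That call was lost when any 1 of the 3 KO arrays or WT replicate 2 or 3 was left out, with adjusted p between 0.0645 and 0.138, and also when quantile normalization was repeated (0.052). With Wnt3a in KO cells, the nuclear lamin gene Lmnb1 fell by 0.98 against KO cells in control medium (adjusted p = 0.0010).

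Keratin proteins are handled by chaperones, adaptor proteins, transglutaminase and caspases. Of 20 such genes tested, 3 were lower and 0 higher in KO cells with Wnt3a, and 8 were lower and 1 higher in control medium. Sfn, a phosphoprotein-binding adaptor of epithelia also called stratifin, fell in both media (log2 difference -2.01 with Wnt3a and -2.41 in control medium). In control medium Tgm2, a transglutaminase that crosslinks proteins (-2.24), Casp6, a caspase that cleaves keratin 18 (-0.79, and -0.38 averaged over its probe sets), and Tradd, a death-receptor adaptor that keratin 18 binds (-0.71), fell as well. The list's shares were 15% called with Wnt3a and 45% in control medium, against 28% and 42.2% of all genes.

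AP-1, Ets and Sp/Klf factors are known to act on the human KRT18 gene. Of 23 such factors tested, 10 were lower and 3 higher in KO cells with Wnt3a, and 10 were lower and 6 higher in control medium. These are 56.5% and 69.6% of the list, against 28% and 42.2% of all genes. Jun, an AP-1 subunit, averaged 6.54 ± 0.23 in KO and 8.56 ± 0.42 in WT cells with Wnt3a, a 4.05-fold fall (limma adjusted p = 2.8e-05). In control medium it averaged 6.59 ± 0.15 in KO and 9.75 ± 0.26 in WT cells, an 8.93-fold fall (adjusted p = 4.4e-07).

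The AP-1 subunit gene Fosl1 was at least 1.5-fold lower in KO cells with Wnt3a, where KO cells were under the floor, and fell by 1.35 in control medium (log2). Ets1 fell in both media (log2 difference -1.74 with Wnt3a and -2.52 in control medium). Elf1, of the Ets family, fell on 1 of its 2 probe sets (-1.36 and -1.40), and averaged over both it differed by -0.71 and -0.73. Ets2, another Ets factor, differed by -0.20 in control medium and was not called. Klf4 went the other way from the keratins and rose by 1.29 in control medium (adjusted p = 2.3e-06).

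In WT cells with Wnt3a, 8 of these 23 factors were lower and 7 higher, and in KO cells 8 were lower and 3 higher. All genes were called at 22.6% lower and 18.9% higher in WT cells, and at 14.7% and 13.3% in KO cells. Jun fell by 1.19 in WT cells with Wnt3a (limma adjusted p = 0.00068) and Fosl1 fell by 1.13 (adjusted p = 9.1e-06). Klf4 rose by 1.62 in WT cells with Wnt3a (adjusted p = 1.9e-06) and by 0.47 in KO cells (adjusted p = 0.0072).

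Transcription factors of epithelia and trophectoderm were divided. Of 21 tested, 10 were lower and 4 higher in KO cells with Wnt3a, and 9 were lower and 5 higher in control medium. In each medium that is 66.7% of the list, against 28% of all genes with Wnt3a and 42.2% in control medium. Cdx2, a trophectoderm factor (log2 difference -0.98 with Wnt3a and -1.01 in control medium), and Grhl1, a grainyhead factor of epithelia (-0.77 and -0.43), fell in both media. Cdx1 went the other way and had the largest difference of the list in control medium, a rise of 1.34 (limma adjusted p = 0.00073). It averaged 7.39 ± 0.13 in KO and 6.04 ± 0.57 in WT cells there. With Wnt3a, Cdx1 differed by 0.43 between KO and WT cells and was not called (adjusted p = 0.21). In control medium Gata3 was at least 1.8-fold lower, while Tead4, which acts upstream of Cdx2 in the embryo, differed by 0.11 and was not called (limma adjusted p = 0.40). Zeb1, a repressor of epithelial genes, rose by 0.62 with Wnt3a and by 0.96 in control medium, and by 0.24 and 0.44 when averaged over its probe sets.

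Junction and surface genes of simple epithelium were mostly lower in KO cells and, in WT cells, with Wnt3a, as the keratins were. They also leaned lower with Wnt3a in KO cells (median -0.28), where the median of the keratins was -0.03. Of 30 tested, 20 were lower and 2 higher in KO cells with Wnt3a, and 22 were lower and 2 higher in control medium. All genes were called at 14.7% lower and 13.2% higher with Wnt3a, and at 22.3% and 19.9% in control medium. With Wnt3a against control medium, 13 were lower and 1 higher in KO cells, and 21 were lower and 2 higher in WT cells. Among all genes, 14.7% were lower and 13.3% higher with Wnt3a in KO cells, and 22.6% were lower and 18.9% higher in WT cells.

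Cldn7, a claudin of tight junctions, averaged 7.45 ± 0.31 in KO and 9.94 ± 0.67 in WT cells with Wnt3a, a 5.63-fold fall (limma adjusted p = 8.3e-05). Without Wnt3a it averaged 7.73 ± 0.13 in KO and 11.08 ± 0.35 in WT cells, a 10.2-fold fall (adjusted p = 2.9e-06). Cldn6, also a claudin, fell in both media (log2 difference -2.42 with Wnt3a and -2.55 in control medium). Marveld3, a tight junction protein, was at least 1.5-fold and at least 5.2-fold lower in the same media.

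Esrp1, an epithelial splicing factor, fell in both media (log2 difference -2.47 with Wnt3a and -1.61 in control medium). Cdh1, for E-cadherin, was 1.72-fold lower in KO cells with Wnt3a, at 11.83 ± 0.23 in KO and 12.62 ± 0.05 in WT cells, and 1.66-fold lower in control medium. In WT cells with Wnt3a, Cldn7 (-1.14), Cldn6 (-1.16) and Marveld3 (-1.80) fell, with limma adjusted p of 0.0074, 0.0057 and 6.7e-05 in that order. Averaged over its probe sets, Marveld3 differed by -0.82 there.

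Krt8 and Krt18 mark the trophectoderm, and a stem cell culture can hold cells of other types. Markers of trophectoderm, endoderm, fibroblasts and stem cells were therefore counted, without Krt8 or Krt18 being taken as markers of fibroblasts. Of 20 tested trophectoderm markers without keratins, 10 were lower and 2 higher in KO cells with Wnt3a, and 11 were lower and 1 higher in control medium. In each medium that is 60% of the list, against 28% of all genes with Wnt3a and 42.2% in control medium. The summed level of the 22 such markers on the array was 12.97 to 13.07 in KO and 13.18 to 13.22 in WT cells with Wnt3a, and 12.92 to 13.10 in KO and 13.16 to 13.23 in WT cells in control medium (log2 of the sum). Rhox6, a placental homeobox gene, had the largest fall of the list in both media (log2 difference -1.60 with Wnt3a and -1.58 in control medium). Eomes and Hand1 of this list were not called in control medium, and Peg10 and Ets2 were not called with Wnt3a. For Eomes, 1 of 2 probe sets was called higher in KO cells with Wnt3a. In either medium the mean of 3 of the 22 was under the floor in KO cells and that of 2 in WT cells. The part of these markers in the keratin difference was not tested.

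Of 26 tested endoderm markers, 3 were lower and 2 higher in KO cells with Wnt3a, and 4 were lower and 5 higher in control medium, which is 19.2% and 34.6% of the list and below the 28% and 42.2% of all genes. Their summed level over 28 markers overlapped between genotypes, at 14.13 to 14.36 in KO and 14.26 to 14.34 in WT cells with Wnt3a, and at 13.69 to 14.50 in KO and 13.91 to 14.15 in WT cells in control medium. Cited1, a transcriptional coregulator, fell in both media (log2 difference -2.05 with Wnt3a and -2.66 in control medium), and Lrp2, the endocytic receptor megalin, fell by 1.28 in control medium. Cubn, the partner receptor of megalin, rose by 2.19, with KO arrays at 6.56, 9.85 and 8.24, against 6.14, 6.23 and 5.70 on WT arrays. Without KO control replicate 2 that difference was 1.37. The KO control replicate 2 array that was highest for Cubn was also the highest of its group on 5 of 6 keratin probe sets. Of those 5, 3 are of Krt8, and Krt19 is not among them. The part of endoderm markers in the keratin difference was not tested.

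Of 11 tested fibroblast markers, 5 were lower and 1 higher in KO cells with Wnt3a, and 6 were lower and 2 higher in control medium, which is 54.5% and 72.7% of the list, against 28% and 42.2% of all genes. Their summed level over 15 markers was 9.98 to 10.03 in KO and 10.21 to 10.29 in WT cells with Wnt3a, and 10.09 to 10.13 in KO and 10.44 to 10.80 in WT cells in control medium. Col1a1, a collagen gene that defines fibroblasts, read 5.48, 5.24 and 5.26 on KO arrays, under the floor, and 6.25, 5.65 and 6.11 on WT arrays in control medium. Thy1 rose by 0.86 there. In either medium the mean of 6 of the 15 fibroblast markers was under the floor in KO cells and that of 4 in WT cells. The part of these markers in the keratin difference was not tested.

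Of 15 tested embryonic stem cell markers, 2 were lower and 5 higher in KO cells with Wnt3a, and 1 was lower and 9 higher in control medium, which is 46.7% and 66.7% of the list, against 28% and 42.2% of all genes. Pou5f1, which defines these cells, averaged 13.53 ± 0.08 in KO and 13.26 ± 0.05 in WT cells with Wnt3a, and 13.38 ± 0.13 in KO and 13.06 ± 0.07 in WT cells in control medium. It rose by 0.32 in control medium (limma adjusted p = 0.0044). The summed level of 15 stem cell markers was 17.22 to 17.25 in KO and 17.07 to 17.16 in WT cells with Wnt3a, and 17.22 to 17.23 in KO and 16.89 to 17.03 in WT cells in control medium, with 0 of the 15 under the floor in any group.

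Some measures of the whole arrays moved with the groups. The Tcf7l1 probe set averaged 9.10 ± 0.18 in KO and 10.37 ± 0.15 in WT cells with Wnt3a, and 9.47 ± 0.11 in KO and 10.85 ± 0.07 in WT cells in control medium. Whether that probe set lies in the deleted part is not stated in the labels. The difference of 3′ and 5′ actin probe sets, a sign of RNA quality, was 0.38 ± 0.03 in KO and 0.26 ± 0.02 in WT cells with Wnt3a, and 0.35 ± 0.06 in KO and 0.21 ± 0.03 in WT cells in control medium (log2). The same difference for Gapdh was -0.06 ± 0.02 in KO and -0.09 ± 0.01 in WT cells with Wnt3a. In control medium it was 0.02 ± 0.02 in KO and 0.01 ± 0.03 in WT cells, so it moved more with the medium than with the genotype. The part of RNA quality in the keratin difference was not tested. The dap spike-in control read 10.85 to 11.08 on Wnt3a arrays and 4.19 to 4.32 on control arrays, so the medium and the preparation of the arrays cannot be told apart. Median intensities were 68.3 to 70.1 with Wnt3a and 71.6 to 73.4 in control medium, and the number of arrays limits the precision.

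Over the 12 arrays, 291 of 13054 other genes had a Pearson r above 0.95 with the mean profile of the 4 keratins. Another 120 had an r below -0.95. Tested genes with RIKEN, predicted or similar clone-type names were left out of the 13054. The points share groups of 3 arrays, so these values mostly restate the split by genotype and are a description. The genes most like the keratins were Bmp1, a procollagen protease, at r = 0.996, and Thbs1 (thrombospondin 1), Capn2 (a calpain protease), Prss23 (a serine protease) and Samd4, each at 0.995. Acta1, the skeletal actin, had 0.994, Kctd10 0.993, and Ripk4 (a kinase of epidermal differentiation), Tnfaip1 and Irs1 (the insulin receptor substrate) 0.992 each.

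Their KO minus WT differences were of different sizes. Bmp1 differed by -1.28 in KO cells with Wnt3a and by -1.49 in control medium, Capn2 by -2.33 and -2.73, and Acta1 by -4.08 and -4.81. Thbs1 and Prss23 were under the floor in KO cells, where Thbs1 was at least 14.7-fold lower with Wnt3a and at least 18.8-fold lower in control medium, and Prss23 at least 12.6-fold and at least 22.6-fold. Ranked by Spearman's rho instead, the same genes scattered, with Ripk4 at rank 12, Capn2 at 22, Bmp1 at 143 and Thbs1 at 1509. With group means removed, Bmp1 kept an r of 0.91 with the keratins and Prss23 one of 0.62. The genes most opposite were Aire (-0.995), Ppp1r14d (-0.994) and Hcfc2, Pdcl and Soga3 (-0.991 each). Aire, a regulator of antigen expression known from the thymus, averaged 10.53 ± 0.07 in KO and 8.55 ± 0.25 in WT cells with Wnt3a, and 10.58 ± 0.16 in KO and 8.28 ± 0.14 in WT cells in control medium.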

How the data were processed

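Total RNA of mouse embryonic stem cells was read on 12 Affymetrix arrays as biotin-labelled cRNA, per the labels' protocols. The authors deposited 1 table of intensity values for 45101 probe sets; the submitters' processing notes name RMA without a version. The deposited intensities are on a linear scale (9.26 to 32765), so log2 was taken with no pseudocount. Names came from the array's annotation table: 34945 carried 1 symbol, 932 several, 9160 were not listed and 64 were controls.

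A gene was represented by its probe set with the highest mean. Genes with at least 3 of 12 arrays above the 40th percentile of all values (log2 5.56) were kept, which left 13811. Group means were fitted over all 12 arrays with limma 3.58.1 in R 4.3.3 (lmFit, eBayes) without a replicate block, and p-values were adjusted by Benjamini-Hochberg over all genes in each of 5 comparisons. A call is an adjusted p under 0.05. A fold against a group mean under the floor was taken against the floor and is given as a lower bound. The fit was tested on simulated data.

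The 4 keratins and 12 gene lists (274 symbols, 211 tested) were chosen with earlier results of these data known, so the keratins have no test. Named genes were the 4 called genes with the largest difference and 2 not called per list and comparison, a fixed set of 25, and the 10 genes most like and 5 most opposite to the mean keratin profile. The text prints part of these, picked after the alternatives were seen so that most calls named hold without any 1 array. Scaling, filters, the choice of probe set, the offset and the fit were varied, and each array was left out in turn. Within groups the arrays correlated at r of 0.995 to 0.998. Promoter windows and gene order came from RefSeq, assembly GRCm38.p6.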

Additional observations from a re-analysis of the deposited data

Results flagged for a closer look

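For 3 named genes that are no keratins and had every group mean above the floor, the Wnt3a effect differed between KO and WT cells by the limma interaction test over all 13811 genes, which called 4.08% of genes. The value is the log2 difference with Wnt3a in KO cells minus that in WT cells. It was 1.14 ± 0.28 for Jun (adjusted p = 0.043), 1.42 ± 0.35 for Tgm2 (0.046) and -1.15 ± 0.15 for Klf4 (0.0043). Jun, which fell by 1.19 with Wnt3a in WT cells, differed by -0.05 in KO cells, and Klf4, which rose in both, rose less in KO cells. Left out 1 at a time, 9 of the 12 arrays ended the call of Jun (adjusted p up to 0.106) and 9 that of Tgm2 (0.12), and none ended that of Klf4. With a replicate block the call of Tgm2 was lost as well (adjusted p = 0.067). The causes were not tested.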

How the results depend on the processing

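Over 9 alternative settings and 12 fits that each left out 1 array, no difference checked for a named gene changed its sign. Of 1801 such checks, 42 lost a call and 5 gained one. The genes were picked after the alternatives were seen so that most calls hold, so nothing is read from these counts. Without 1 array at a time, the median over the 4 keratins ran from -4.01 to -3.61 for KO minus WT with Wnt3a, from -4.61 to -4.23 in control medium, from -0.12 to 0.05 for Wnt3a minus control in KO cells, from -0.82 to -0.41 in WT cells and from 0.32 to 0.76 for the interaction. With an offset, log2(value + 32), Krt7 differed by -2.28 with Wnt3a and -2.80 in control medium, and with the mean of all probe sets the Krt8 interaction was 0.51. The counts that moved most were those of the interaction, 151 to 952 of all genes (563 as reported) and 4 to 21 of list genes (13 as reported), lowest without WT control replicate 3 and highest without WT Wnt3a replicate 1. Genes called for Wnt3a in KO cells ran from 2393, without KO control replicate 3, to 4011 (3872 as reported). Gata6, an endoderm factor with a log2 difference of 0.77 in KO cells in control medium (adjusted p = 0.056), passed in 5 of 21 alternatives, with the lowest adjusted p without KO control replicate 1 (0.00059), and ran from 0.36 to 1.20 without 1 array. Deviations of same-numbered arrays correlated with r from -0.26 to 0.24. With 3 arrays per group these r values cannot decide whether the numbers pair the samples. With a replicate block the calls were 3622 and 5600 for KO minus WT with Wnt3a and in control medium. They were 3553 and 5474 for Wnt3a in KO and WT cells, and 394 for the interaction. The 3 arrays per group and the lack of detection calls limit what can be said of values near the floor, Krt7 in KO cells among them.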
